A study of Enallax costatus with 10 samples.

Results

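The comparison set dried drops of a green alga against drops collected while still wet, to show which transcripts differed between these stages. Its genes were all assembly genes with 10 or more RSEM counts in at least 2 of the 4 libraries concerned, which gave 13362 of 32478 genes. The alga was Enallax costatus, strain CCAP 276-31, without genetic modification stated in the labels, grown in flasks for 6 weeks and laid out as drops of 40 µL on cover glasses. The Hydrated group was taken at 0 h, straight after the drops were placed. The Dry group was taken at about 24 h, when the drops had flattened completely and had then stayed in the drying chamber for 11 h. Each group had 2 libraries, and the same culture age, drop size and library kit applied to both. The series held no drops kept wet for about 24 h, so loss of water and time on the cover glass cannot be told apart. The series also held 2 libraries each of Early desiccation (2.5 h, the Early stage), Late desiccation (7.5 h, the Late stage) and Rehydrated (1 h after water). These took part in the filter on low counts, the scaling between libraries and the estimate of the spread.

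Green algae differ in whether their vegetative cells survive drying, and the labels do not say whether these cells did. In algae and plants, water loss is known to slow photosynthesis and growth, and drying often brings up transcripts for protective proteins, sugar metabolism and antioxidant enzymes. Which of these functions the genes here serve was not read from the tables, because the identifiers are those the Trinity assembler writes and the files do not pair them with gene names. For the same reason the alga could not be checked against marker genes, and no sequence is shown. A Trinity identifier gives a read cluster, a component (c) and a gene (g). One biological gene can appear as several identifiers, and near-identical copies share reads.

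The 4 libraries were of like depth and each pair of replicates was closer to itself than to the other stage. Hydrated held 3611852 and 2808813 counts and Dry held 2497321 and 3713456 (replicates 1 and 2). Nothing in the labels states that replicates were grown as separate cultures. The p-values therefore reflect only the spread between replicate libraries, part of which may be technical. That spread was estimated in 1 fit of all 10 libraries of the series, not from these 4 alone. The median absolute log2 difference over the 13173 genes of the comparison that entered the test was 0.431 between the Hydrated libraries and 0.524 between the Dry libraries, and 1.198 between a Hydrated and a Dry library. Neither pair was 1 library deposited again, since chi-square over degrees of freedom was 20.6 for Hydrated and 10.02 for Dry. Hydrated replicate 2 stood apart from its partner in several respects. It had 16694 assembly genes with 10 or more counts, against 14049 in replicate 1. The genes of the comparison held 94.9% of its counts, against 98.2%, and its top gene held 8.39%, against 3.91%. Together with Late desiccation replicate 2 and both Rehydrated libraries it shared 147 genes (3 counts or more per library) that had no counts in the other 6, where the next highest set of 4 libraries shared 19. Both Dry libraries lay outside that set. The numbers of called genes without Hydrated replicate 2, as without most of the other libraries, are given below with the results of leaving libraries out. The classes and groups of genes described later were not formed again without it.

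Fewer genes took up most of the counts in dry drops. In Dry, the genes that together held 50% of all counts numbered 73 and 63 in replicates 1 and 2, against 252 and 238 in Hydrated. To reach 90% of the counts took 1930 and 1722 genes in Dry and 5173 and 6994 in Hydrated. Both Dry libraries lay below both Hydrated libraries in each measure. The 10 genes with the most counts differed less between these 2 stages, with 27.8% and 29.9% of counts in Dry against 23.4% and 27.2% in Hydrated. At the other stages, 50% of the counts took 155 and 144 genes (Early), 10 and 39 (Late) and 38 and 14 (Rehydrated). The Late and Rehydrated values lay below both Dry libraries. For 90% of the counts the numbers were 5015 and 4686, 3880 and 5050, and 2782 and 174 in the same order. With 2 libraries against 2, the two-sided exact permutation test cannot give a p below 0.33, so these library values carry no test. Counts per gene are not divided by gene length, and in bulk samples fewer cells and less RNA per cell cannot be told apart.

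**Figure D1:**
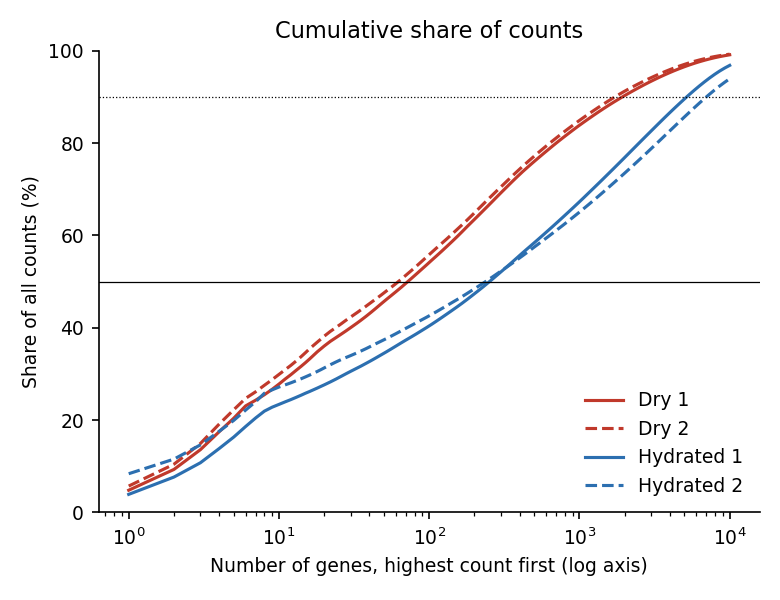
Cumulative share of all counts (%) against the number of genes, counted from the gene with the most counts (log axis), in each Hydrated (blue) and Dry (red) library, with solid lines for replicate 1 and dashed lines for replicate 2. The Dry curves cross the line at 50% at 73 and 63 genes and the Hydrated curves at 252 and 238.

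Most genes of the comparison reached 10 counts in libraries of both stages. Where they reached 10 counts in 1 stage only, it was far more often Hydrated. Fewer than 10 counts does not mean that a transcript was absent. Of the 13362 genes, 7001 (52.4%) reached 10 counts in all 4 libraries. A further 4016 (30.1%) reached it in both Hydrated libraries and in neither Dry library, while 143 (1.07%) showed the opposite. The remaining genes reached it in both Hydrated and 1 Dry library (1676), in 1 Hydrated and both Dry libraries (226), or in 1 library of each stage (300). Per library, 12950 and 12962 of these genes had 10 or more counts in Hydrated and 8046 and 8670 in Dry. Both Dry libraries thus had fewer such genes than both Hydrated libraries. Dry replicate 2 held more counts in total than either Hydrated library. Because fewer genes held most of the Dry counts, total counts do not give the depth left for the other genes. The part of depth in these numbers was not tested. At the upper end, 3505 genes had 100 or more counts in both Hydrated libraries and 1990 in both Dry libraries. No counts at all were found for 352 genes in either Dry library and for 17 genes in either Hydrated library. A gene that entered through the stage in which it is high had to differ, so these classes describe the set and support no direction. Around the entry limit, 776 genes had a second highest count from 10 to below 12 and 1009 had one from 8 to below 10. The median log2 fold changes of those tested were -0.73 and -0.72.

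Of the 13173 genes tested, 1235 were higher in Dry and 868 lower than in Hydrated (edgeR quasi-likelihood test, Benjamini-Hochberg adjusted p under 0.05 over all 16190 genes tested). Together these were 2103 genes or 16% of those tested here. Over all 16190 genes, 13.1% were called, 7.7% higher and 5.38% lower, and the genes of the comparison make up most of that total. The other 189 genes fell under the filter on low counts and have no test. Among all 16190 genes, both Dry libraries lay above both Hydrated libraries in 26.3% and below them in 38.9%; in the comparison the corresponding counts were 4102 and 5489 genes, and all 2103 called genes were among them. CPM here are counts scaled to 1000000 on library sizes scaled by TMM, a method that takes most genes as unchanged.

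**Figure D2:**
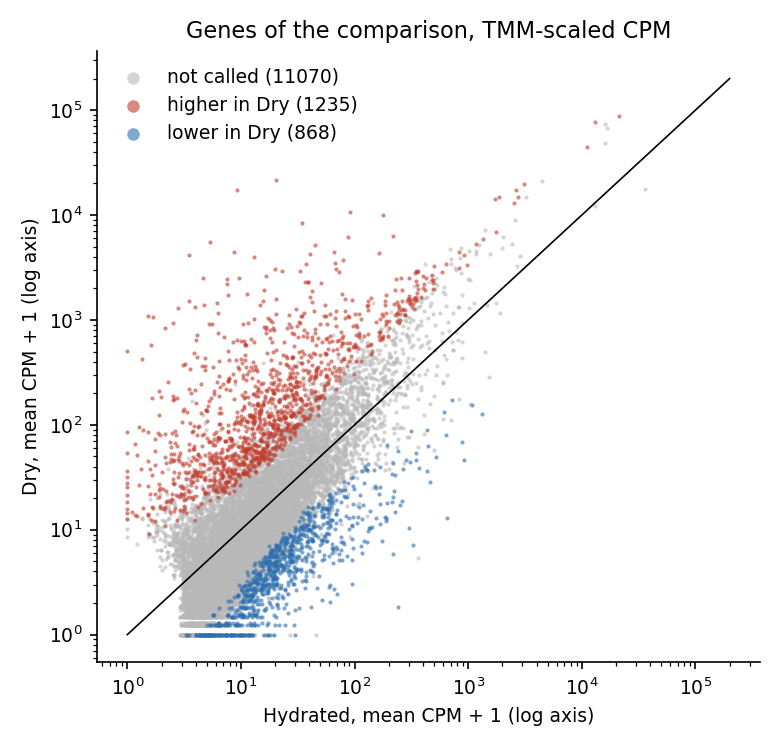
Mean CPM in Dry against mean CPM in Hydrated, each plus 1 on log axes, for the 13173 genes tested; red and blue points are the 1235 higher and 868 lower genes, grey points were not called, and the line marks equal values. Red points lie above the line from low to high Hydrated values, and blue points lie in a narrower band below the line.

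The changes were large in both directions. Higher genes had a median log2 fold change of 3.03, with quartiles of 2.29 and 4.06. Lower genes had a median of -2.84 as fitted. Of these, 88 had no counts in Dry, and with them set to the bound that 3 counts summed over the stage allow, the median was -2.71, with quartiles of -3.49 and -2.14. The estimate of every called gene exceeded 2-fold. This follows in part from the calls, since the lowest SE of a called gene was 0.375 and small changes could hardly pass. Tested against a 2-fold change (edgeR glmTreat), 928 genes were called. With genes at 0 set to their bound, 631 higher genes (51.1%) and 340 lower genes (39.2%) differed by more than 8-fold, and 197 (16%) and 33 (3.8%) by more than 32-fold. Over all genes tested that had counts in either stage, 9.91% differed by more than 8-fold and 1.7% by more than 32-fold. The median SE of the log2 fold change was 0.63 among called genes. A total of 4678 genes of the comparison had an unadjusted p under 0.05, so many differences of this kind were not called.

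Directions depended on how libraries were scaled. The TMM factors were 1.62 and 1.77 in Hydrated and 0.664 and 0.556 in Dry. The median log2 fold change of the tested genes of the comparison was -0.32 with TMM, -0.52 with upper-quartile scaling and -1.79 with total counts. The split of calls moved with it, from 1235 higher and 868 lower with TMM to 1072 and 1195 with upper-quartile factors and 287 and 3947 when only total counts were used (edgeR). These factors shift all genes down together, so no lower gene could cross 0. Of the 1235 higher genes, 1223 were still above 0 with total counts, at a median of 1.56. A rise given below is therefore a rise relative to the other genes, and the values as shares of all counts are set beside it.

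**Figure D3:**
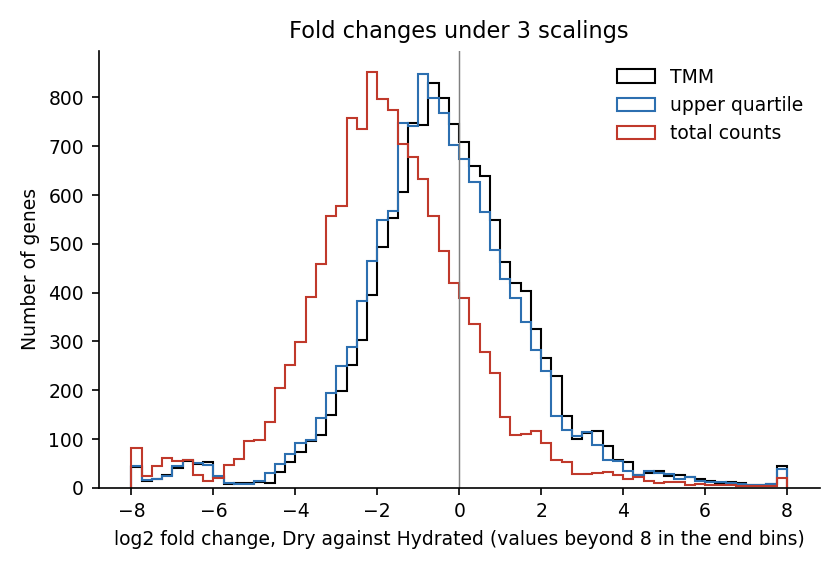
Number of genes by log2 fold change of Dry against Hydrated (values beyond 8 are in the end bins) under TMM, upper-quartile and total-count scaling. The whole distribution moves left, from a median of -0.32 under TMM to -0.52 and -1.79.

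Libraries outside and inside the comparison also moved the counts. The Rehydrated pair was uneven, with 2782 and 174 genes holding 90% of the counts. With replicate 1 or replicate 2 of that pair left out, 4275 or 4256 genes were called, and with both left out 4311. The fit without both called 2101 of the 2103 genes again in the same direction. Rehydrated libraries are not part of the difference between Dry and Hydrated, so the fold changes could hardly move. That number is therefore no independent check. With total counts in place of TMM, 54.9% of the 2103 genes were called again in the same direction. Without Hydrated replicate 1 the count was 463 (298 higher, 165 lower), and without Hydrated replicate 2 it was 454 (284 higher, 170 lower). Without Dry replicate 1 or 2 it was 735 or 420. The single library left in a stage was then assumed to vary like the other stages. It was 1149 or 1174 without Early desiccation replicate 1 or 2, and 1325 without Late desiccation replicate 1. With a term for the set of libraries that Hydrated replicate 2 belongs to, 748 genes were higher and 420 lower. Higher genes outnumbered lower ones under TMM in each of these fits.

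The genes higher in Dry took over the larger part of the library. They held 21.0% and 17.1% of all counts in Hydrated replicates 1 and 2, and 52.3% and 53.7% in Dry. The 868 lower genes held 7.01% and 6.12% in Hydrated and 0.410% and 0.301% in Dry. Genes that were not called went from 70.1% and 71.6% to 46.5% and 45.3%. These shares follow from the choice of the called genes in the same libraries and are a description of their weight. The libraries of the other stages entered the fit through the filter on low counts, the scaling and the estimate of the spread. There the higher genes held 20.3% and 29.0% at the Early stage, 11.8% and 13.3% at the Late stage and 20.3% and 12.02% in Rehydrated. All 6 of these values lay below both Dry libraries. The lower genes held 4.30% and 3.41%, then 2.26% and 3.45%, then 1.19% and 0.712% in the same libraries, which lay between Hydrated and Dry in each case. Gene by gene, both Dry libraries lay above all other 8 libraries in 1092 of the 1235 higher genes (88.4%), against 2503 (19%) of all tested genes of the comparison. Both lay below all others in 511 of the 868 lower genes (58.9%), against 1636 (12.4%). In 247 lower genes (28.5%) it was the Hydrated libraries that lay above all others, against 740 (5.62%) of those tested. Much of the gap between these shares is fixed by the calls, which already place Dry apart from Hydrated. Among the tested genes of the comparison, only the 4102 with both Dry libraries above both Hydrated libraries could be among the 2503. Likewise only the 5489 with Dry below could be among the 1636 or the 740.

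Genes rose in Dry from low, middle and high values in wet drops. CPM is not per length, so the classes below also reflect gene length, and a class picked by its Hydrated value leans to genes whose Hydrated value was low or high by chance. Over all tested genes of the comparison, 9.38% were higher and 6.59% lower. Of the 6136 genes at 1 to 10 CPM in Hydrated, 434 rose (7.07%) and 167 fell (2.72%). Of the 6219 genes at 10 to 100 CPM, 621 rose (9.99%) and 631 fell (10.1%), so the higher share was near that of all these genes. Of the 683 genes at 100 to 1000 CPM, 113 rose (16.5%) and 68 fell (9.96%). At more than 1000 CPM in Hydrated there were 42 genes, of which 12 rose (28.6%) and 2 fell (4.76%). The 93 genes under 1 CPM in Hydrated could enter the comparison only through their Dry counts and could not fall, so their 55 higher calls show nothing about that class. Those 42 genes held 32.9% and 35.8% of all counts in Hydrated and 38.4% and 39.7% in Dry. The 2 classes from 10 to 1000 CPM changed less as wholes. The class from 10 to 100 CPM was at 30.5% and 28.1% in Hydrated and 27.3% and 27.5% in Dry, and that from 100 to 1000 CPM at 29.8% and 25.3%, then 25.8% and 24.3%.

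A group of 82 genes went from under 10 CPM in both Hydrated libraries to 100 CPM or more in both Dry libraries, and 80 of them were called, beside 13.1% of all genes tested. Their Dry and Hydrated values chose them, so these calls and the gap between the stages follow from the choice. They lie in 79 Trinity components. As a group they held 0.0535% and 0.0576% of counts in Hydrated and 3.01% and 3.07% in Dry. The libraries not used to pick them gave 0.141% and 0.209% at the Early stage, 0.136% and 0.134% at the Late stage, and 1.49% and 0.910% in Rehydrated. Their median CPM was 3.81 and 3.73 in Hydrated, 4.45 and 6.35 at the Early stage, 7.99 and 4.91 at the Late stage, 260 and 299 in Dry, and 67.1 and 22.4 in Rehydrated. All 4 libraries of the Early and Late stages lay above both Hydrated libraries in share and in median, by far less than Dry, and the Rehydrated values fell between those stages and Dry. The choice took low Hydrated and high Dry values, so libraries outside the choice tend to lie between them. In 8 of these genes both Dry libraries exceeded 1000 CPM. Those 8 genes took 1.43% and 1.33% of Dry counts after 0.00598% and 0.00602% in Hydrated.

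The 20 called genes with the largest rise in CPM together held 11.6% and 9.50% of counts in Hydrated and 23.7% and 25.2% in Dry. Their mean in Dry ran from 5124 to 88110 CPM and their mean in Hydrated from 4.39 to 21440 CPM, with 7 of the 20 under 100 CPM in Hydrated. Their log2 fold changes ran from 1.96 to 11.04, with edgeR adjusted p-values between 0.00148 and 0.0495. The 20 genes fall in 19 components.

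TRINITY_DN126975_c0_g2 showed the largest rise in TMM-scaled CPM, while TRINITY_DN157228_c2_g1 gained more as a share of all counts and on the second table. Its CPM was 24475 and 18398 in Hydrated (141276 and 88809 counts), 25005 and 37368 at the Early stage, 13051 and 17138 at the Late stage, 72914 and 103310 in Dry (120152 and 212282 counts), and 8756 and 10667 in Rehydrated. On TMM-scaled CPM, both Dry libraries were above all 8 others, and Early desiccation lay highest among the rest. The means were 21437 ± 4297 CPM in Hydrated and 88114 ± 21500 CPM in Dry (SD, n = 2 each), and the log2 fold change was 2.04 ± 0.60 (SE; adjusted p = 0.0495 by edgeR). It is 1 of 3 genes of its component and had fractional counts. As shares of all counts the values were 3.91% and 3.16% in Hydrated and 4.81% and 5.72% in Dry, so the rise was smaller on that scale. Early desiccation held 3.995% and 5.477%, so its replicate 2 lay above Dry replicate 1 in share. With total counts in place of TMM the log2 fold change was 0.55 (edgeR adjusted p = 0.275), and the call was lost as well, among other settings, under upper-quartile scaling (edgeR adjusted p = 0.0665), with the replicate block (0.0514) and without any one of the 8 libraries of Hydrated, Early desiccation, Late desiccation or Dry (0.0934 to 0.300). Per length, on the second deposited table, the gene stood at rank 6 in Hydrated and 8 in Dry.

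TRINITY_DN157228_c2_g1, the only gene of its component, had the next largest rise in CPM. Its CPM was 15548 and 10593 in Hydrated (89748 and 51132 counts), 11828 and 24183 at the Early stage, 5066 and 8522 at the Late stage, 68220 and 85365 in Dry (112418 and 175401 counts), and 4737 and 6999 in Rehydrated. The Dry pair again stood above every other library and did not overlap with Hydrated. The means were 13071 ± 3504 CPM in Hydrated and 76793 ± 12120 CPM in Dry (SD, n = 2 each), and the log2 fold change was 2.55 ± 0.66 (SE; adjusted p = 0.0318 by edgeR). Its share of all counts was 2.49% and 1.82% in Hydrated and 4.50% and 4.72% in Dry, a mean of 2.15% against 4.61%, where TRINITY_DN126975_c0_g2 went from 3.54% to 5.26%. On the second table the means were 2834 and 13790, against 3862 and 13110 for TRINITY_DN126975_c0_g2. With total counts the log2 fold change was 1.08 (edgeR adjusted p = 0.0904). The call was also lost, among other settings, with the term for the library set (edgeR adjusted p = 0.099) and without any one of the same 8 libraries (0.0582 to 0.236). Per length it moved from rank 9 in Hydrated to rank 6 in Dry.

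**Figure D4:**
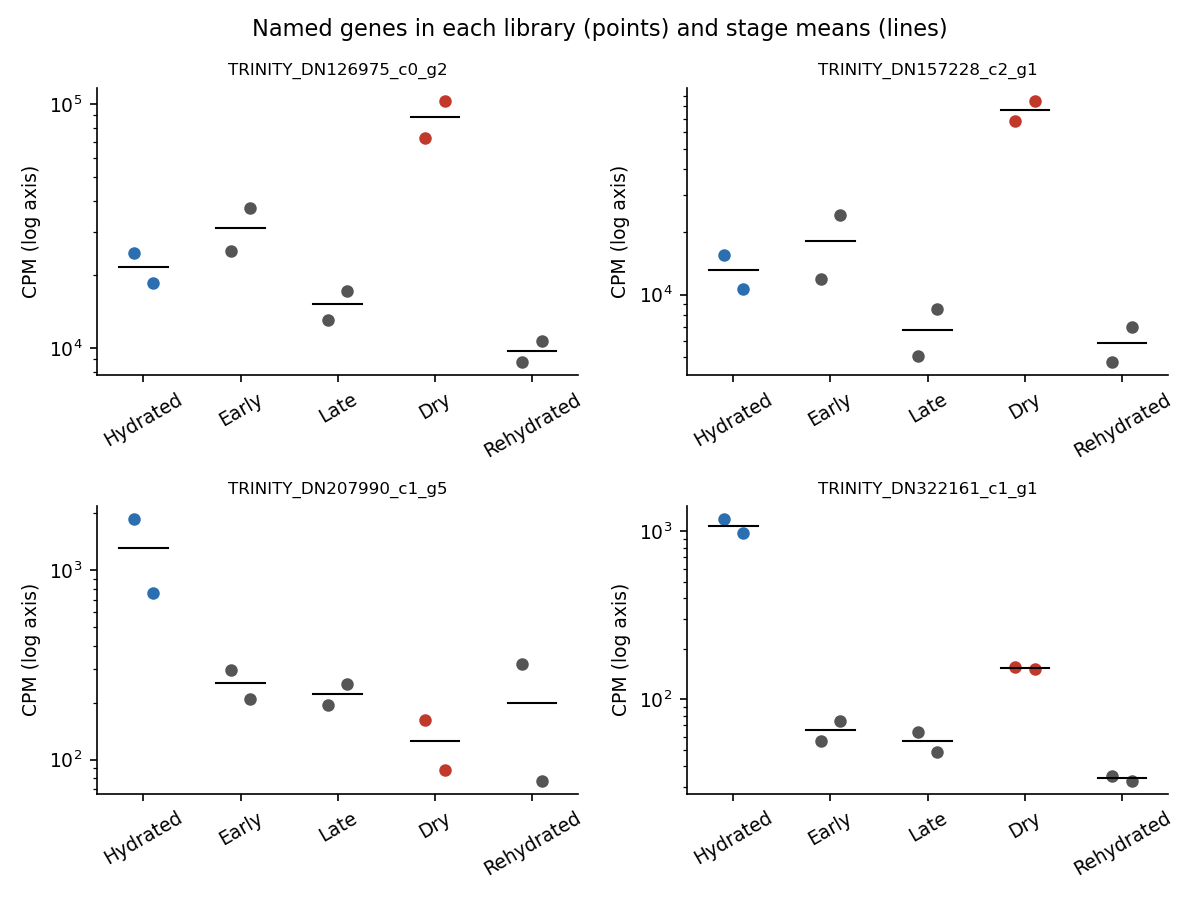
CPM (log axis) of the 2 genes with the largest rise (upper panels) and the 2 with the largest fall (lower panels) in each of the 10 libraries, by stage; points are libraries and lines are stage means. The upper genes are highest in both Dry libraries, and the lower genes are highest in both Hydrated libraries and had already dropped in Early desiccation.

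The lower genes had less weight in Hydrated and were more even in size. Their 20 largest falls in CPM started from means of 262 to 1314 CPM and ended at 6.14 to 170.9 CPM, with log2 fold changes from -5.76 to -2.08 and edgeR adjusted p-values between 0.00169 and 0.0456. Together these 20 genes held 2.203% and 1.53% of counts in Hydrated and 0.0925% and 0.0618% in Dry, and each lay in a component of its own. No gene went from 1000 CPM or more in both Hydrated libraries to under 100 CPM in both Dry libraries. A group of 19 genes went from at least 100 CPM in both Hydrated libraries to under 20 CPM in both Dry libraries, and all 19 were called, beside 13.1% of all genes tested, which follows from the choice by these libraries. Their median CPM was 165 and 167 in Hydrated, 65.7 and 35.1 at the Early stage, 27.5 and 78.1 at the Late stage, 9.71 and 8.27 in Dry, and 20.9 and 14.9 in Rehydrated. In all 4 libraries of the Early and Late stages, the medians were already below both Hydrated libraries. The genes were picked for high Hydrated values, so libraries outside the choice tend to lie below Hydrated.

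TRINITY_DN207990_c1_g5 had the largest fall in CPM. Its CPM was 1867 and 761 in Hydrated (10774 and 3671 counts), 298 and 210 at the Early stage, 194 and 251 at the Late stage, 161 and 88.6 in Dry (266 and 182 counts), and 320.05 and 77.5 in Rehydrated. Both Hydrated libraries lay above all others. Early and Late desiccation had already dropped to values between Hydrated and Dry. The means were 1314 ± 782 CPM in Hydrated and 125 ± 51.5 CPM in Dry (SD, n = 2 each), and the log2 fold change was -3.39 ± 0.79 (SE; adjusted p = 0.0212 by edgeR). It is 1 of 5 genes of its component and had fractional counts, so reads may have been shared with another copy. The call was lost without Hydrated replicate 1 (log2 fold change -2.61, edgeR adjusted p = 0.107) and without Dry replicate 1 or 2 (0.0955 and 0.167). On the second table plus 0.1, limma gave it an adjusted p of 0.0513.

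TRINITY_DN322161_c1_g1, alone in its component and with whole counts throughout, followed. Its CPM was 1182 and 978 in Hydrated (6820 and 4721 counts), 56.6 and 74.1 at the Early stage, 63.6 and 48.6 at the Late stage, 156 and 151 in Dry (257 and 311 counts), and 34.8 and 32.8 in Rehydrated. Its lowest values were thus outside the Dry stage, and both Dry libraries lay above those of Early and Late desiccation on TMM-scaled CPM. As shares of all counts the Dry values of 0.0103% and 0.00838% overlapped with the 0.00905% and 0.0109% of Early desiccation. The means were 1080 ± 144 CPM in Hydrated and 154 ± 3.25 CPM in Dry (SD, n = 2 each), and the log2 fold change was -2.81 ± 0.50 (SE; adjusted p = 0.00698 by edgeR). The call was lost without Dry replicate 1 or 2 (edgeR adjusted p = 0.063 and 0.0782).

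Genes with more counts were called more often. In quartiles of mean CPM over all 10 libraries, from lowest to highest, 20, 104, 333 and 778 genes were higher and 116, 231, 333 and 188 were lower, of about 3293 genes each. The share called was 4.13%, 10.2%, 20.2% and 29.3%, beside 13.1% over all genes tested. The median log2 fold change went from -1.13 in the lowest quartile to -0.61, -0.20 and 0.78. The median SE was 1.14 in the lowest quartile and 0.57 in the highest, so the lower quartiles could show less. This mean holds the Dry values, so genes that rose in Dry were moved up the scale and genes that fell were moved down. By quartiles of mean CPM over the 6 libraries of the other stages, a choice made after seeing the data, 108, 185, 360 and 582 genes were higher and 112, 217, 308 and 231 lower. The share called was then 6.68%, 12.2%, 20.3% and 24.7%, with medians of -0.91, -0.57, -0.24 and 0.40. Among the 100 genes with the highest mean CPM over all 10 libraries, which is likewise raised by high Dry values, 29 were higher and 0 lower, with a median of 1.60. By edgeR 3 of these 100 were lower at an unadjusted p under 0.05, DESeq2 called 55 higher and 3 lower, and limma voom 56 and 3. Ranked on the 6 other libraries, 18 of the top 100 were higher and 1 lower. With total counts the median of the highest quartile over all 10 libraries was -0.70, so its sign turned, and edgeR then called 10 of the first 100 genes higher and 12 lower.

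**Figure D5:**
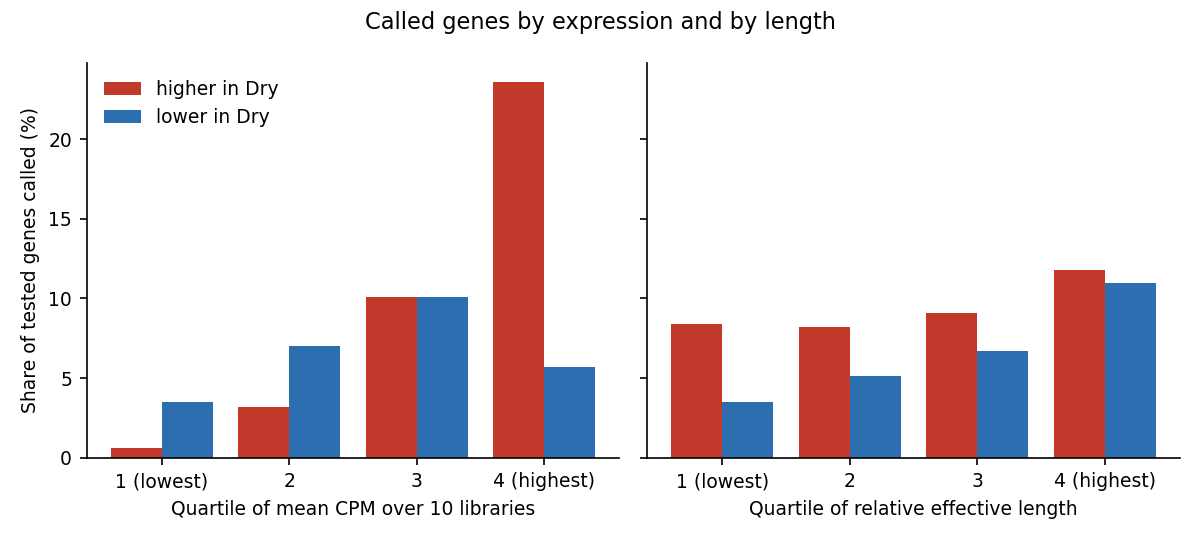
Share of tested genes (%) called higher (red) and lower (blue) in Dry by quartile of mean CPM over all 10 libraries (left) and by quartile of effective length (right). The share of higher genes climbs from 0.607% to 23.6% with CPM, a scale that holds the Dry values themselves, and the share of lower genes climbs from 3.49% to 11% with length.

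Length moved with the lower calls. Effective length was taken as the count divided by the value of the second table, relative to the median gene. From the shortest to the longest quartile, 276, 270, 300 and 389 genes were higher and 115, 170, 221 and 362 were lower. The share of lower calls was therefore 3.49% in the shortest and 11% in the longest quartile, and that of higher calls 8.38% and 11.8%. The median log2 fold change was -0.19 in the shortest and -0.40 in the longest quartile. The median SE went from 0.87 to 0.58 along the same scale, and its part in the counts was not tested.

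Genes of the same Trinity component mostly moved together. Among called genes, 195 lay in 86 components with at least 2 called genes. In 69 of these components all were higher, in 16 all were lower, and in 1 both directions occurred. Of the 153 gene pairs within components, 149 (97.4%) shared their direction. Over all called genes 58.7% were higher, which is not the share of unrelated pairs that would agree in direction. Pieces of 1 transcript and copies that share reads fall in the same component, so such pairs are not separate observations. With counts summed over components before the test, 1472 components were higher and 1092 lower (edgeR). Genes with whole counts in every library, which show no sign of shared reads, had 716 higher and 584 lower among 8517, and the 4656 genes with fractional counts had 519 and 284. Their median log2 fold changes were -0.45 and -0.02.

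Among the genes with the most counts, dry drops kept much of what wet drops held. Of the 100 genes with the most counts in each library, the Hydrated pair shared 73 and the Dry pair 92, and Hydrated and Dry libraries shared 47 to 55. On the second table, which is length-normalised, the Hydrated pair shared 74, the Dry pair 86, and libraries of different stages 60 to 69. The overlap between stages was thus below that within either pair on both tables, and larger per length than by counts.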

How the data were processed

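RNA sequencing of 10 libraries was analysed from 2 deposited tables. The tools named in the submitters' processing notes are RSEM 1.2.28, Bowtie2 2.2, Trimmomatic 0.35, CASAVA 1.4 and DESeq2; their roles and the assembly are not given in the sources used here. Per the labels' protocols, rRNA was depleted with a plant kit and 105 custom oligonucleotides. Expected counts of the assembly genes, as the authors deposited them in the first table (11.4% not whole, tolerance 0.005), were rounded here. The second deposited table holds a score, judged from values and name as length-normalised expression scaled by TMM. Each column was assigned to a sample through the replicate number and time code in its name. Genes, lists and tests were chosen with earlier results of these data known.

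Counts were analysed in R 4.3.3 with edgeR 4.0.16: filterByExpr (minimum count 10, minimum total 15), TMM, and 1 quasi-likelihood fit of all 10 libraries by stage (5 residual degrees of freedom). An SE is the absolute log2 fold change divided by the square root of F. Bounds use 3 counts summed over a stage and cover counting error only, as reads carry no molecular identifiers. Named genes were the 2 largest rises and 2 largest falls in mean CPM among called genes of the comparison without overlap between stages; only these identifiers are printed. Alternatives used limma 3.58.1 and DESeq2 1.42.0. Libraries were left out with the tested genes held fixed. The test was checked on simulated data.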

Additional observations from a re-analysis of the deposited data

How the results depend on the processing

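The counts of 2103 called, 1235 higher and 868 lower genes kept within 1.5 times under DESeq2 size factors in edgeR, upper-quartile scaling, no filter on low counts, sums over Trinity components and the replicate block. Other settings moved at least 1 of them; the cause was not tested. Under total counts they were 4234, 287 and 3947. Without both Rehydrated libraries they were 4311, 2348 and 1963, with the term for the library set 1168, 748 and 420, by limma voom with library weights 3717, 2278 and 1439, at an adjusted p under 0.01 595, 452 and 143, and against a 2-fold change by glmTreat 928, 641 and 287. The 4 Hydrated and Dry libraries alone gave 1950 higher genes, DESeq2 gave 1940, and the entry rule as the only filter gave 1393 lower genes. By limma on the log2 of the second table plus 1, 810 were higher and 966 lower. With 0.1 added instead, 1083 were called, 460 higher and 623 lower. Lower genes thus outnumbered higher ones on that table, the reverse of the main fit. Leaving out 1 library of the 10 at a time gave 420 to 4275 called, 284 to 2333 higher and 93 to 1978 lower genes. No named gene changed sign under any alternative run. Same-numbered libraries are not stated to share a source, and the correlation of their deviations was 0.047 between Hydrated and Dry. With the replicate block, 1953 genes were called (1224 higher, 729 lower) and the named genes kept their calls except TRINITY_DN126975_c0_g2 (log2 fold change 1.997, edgeR adjusted p = 0.0514). At this depth the lowest quartile of CPM had few calls (4.13%), so a gene not called there may still differ.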
